A study of Homo sapiens with 10 samples.

Results

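The genes described here encode the core and regulatory proteins of pre-mRNA splicing in K562, an established human chronic myelogenous leukemia cell line with erythroid and megakaryocytic features. Members were the rows of the expression table whose symbol begins with HNRNP, SNRP or U2AF, with SF3A or SF3B and a digit, or consists of SRSF and a number, and whose values averaged 0.5 FPKM or more across the 10 samples. FPKM counts fragments relative to transcript length and to the mapped reads of a library. The symbols matched 62 of 23284 rows and 56 passed the limit, among 12788 genes of the whole table that did. They were 11 SR proteins, 22 hnRNP rows, 9 subunits of SF3A and SF3B, 11 snRNP proteins and 3 U2AF genes. The 6 rows under the limit were SRSF12, SNRPN, HNRNPCL1, HNRNPA3P1, HNRNPKP3 and SNRPD2P2. No row lay close to the limit, and the nearest were SRSF12 below it with a mean of 0.253 FPKM and HNRNPA1L2, a copy of HNRNPA1, above it with 3.11 FPKM.

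K562 cells had been given DMSO (vehicle), CBP30 or I-CBP112 for 48 h, each compound at both 2 and 5 µM, with 2 biological replicates per condition and 10 samples in all. Both compounds bind the bromodomains of the histone acetyltransferases CREBBP and EP300, the domains through which these coactivators read acetylated lysines. The labels give the same parental line for all samples, and the groups differ in the compound and its dose. No sequencing depth can be read from FPKM values. The precision of each comparison rests on the spread between the 2 samples of a condition, pooled over all 5 conditions.

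Splicing removes introns in a series of assemblies on the pre-mRNA. The U1 snRNP binds the start of the intron, U2AF binds its end, and the U2 snRNP, which carries SF3A and SF3B, then settles on the branch point. Each of these particles holds a ring of Sm proteins around its RNA. SR proteins bind exonic enhancers and recruit these particles, while many hnRNPs bind silencers or keep splice sites apart, and the balance between both families sets which exons are included. Several SR and hnRNP genes also carry exons that send their own transcripts to decay when included. A value per gene cannot separate such transcripts, and single splicing variants were not analysed here.

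The libraries were checked before the members were compared. Of 16 genes typical of K562 none was at 0 in any group, and their summed level was between 2208 and 2282 FPKM with DMSO, between 1296 and 1488 with I-CBP112, between 875 and 1160 with 2 µM CBP30 and between 758 and 777 with 5 µM CBP30. With 5 µM CBP30, 14 of these 16 genes fell and 1 rose. Genes of other blood cells (8 listed) moved with the groups too. They summed to between 55.6 and 59.1 FPKM with DMSO, between 72.5 and 79.1 with CBP30 and between 65.0 and 76.8 with I-CBP112, nearly all of it from LYZ and CD3D, and MS4A1 was listed at 0 in all groups. Of the 5 that were tested, 5 rose with 2 µM CBP30 and 4 with 5 µM. Genes of other tissues (6 listed) summed to between 59.7 and 60.8 FPKM with DMSO, between 44.4 and 58.7 with 2 µM CBP30 and between 34.4 and 35.7 with 5 µM. With I-CBP112 they summed to between 47.5 and 52.3 FPKM. Most of each sum was EPCAM, with a mean of 59.2 FPKM with DMSO and 32.4 with 5 µM CBP30, and KRT5 was listed at 0. Of the 2 that were tested, EPCAM fell with 5 µM CBP30 and COL1A1 rose, from a mean of 0.48 to 1.92 FPKM. The part of these shifts in the results on splicing genes was not tested. One library stood apart. In replicate 1 of 2 µM CBP30 the difference from the DMSO mean moved with transcript length, and its log2 median was 0.30 for the shortest 20% of genes and −0.30 for the longest 20%. Replicate 2 of the same condition had medians of 0.0039 and −0.022 in the same sets. Both samples of 5 µM CBP30 had a weaker trend the other way, between −0.12 and −0.11 for the shortest and 0.12 for the longest. The snRNP transcripts are short (median 1082 bases), against 3959 for SR proteins, 3068 for hnRNPs and 3071 over the tested genes with a known length. Called differences from the 2 µM CBP30 samples are therefore given with and without that replicate. Each gene's spread was estimated over all 5 groups, so the replicate also enters the p-values of the other comparisons. Those were not refitted without it alone, and only the fit of the groups compared leaves it out. A fit with the length trend removed from each sample is given beside many of the results whose call or size it changed, though not all.

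These are abundant transcripts. The median DMSO mean over the 56 members was 121 FPKM, against 11.7 FPKM over all tested genes, and the members made up between 1.41% and 1.58% of the summed FPKM of a sample. FPKM is per length, so levels can be set side by side between genes. HNRNPA1, which shuttles between nucleus and cytoplasm and represses exons, led all members with 1013 ± 8.96 FPKM (SD, n = 2). SRSF2, an SR protein mutated in myeloid neoplasms, led its class with 234 ± 5.33 FPKM. The first of the SF3A and SF3B subunits was SF3B5 at 182 FPKM, the first of the snRNP proteins was the Sm ring protein SNRPD2 at 334 FPKM, and U2AF1, which reads the AG at the end of the intron, led U2AF at 119 FPKM. The lowest members were HNRNPA1L2 at 3.24 and U2AF1L4, a homologue of U2AF1, at 8.29 FPKM.

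The first comparison asked what 5 µM CBP30 did to these genes relative to DMSO. Called means a Benjamini-Hochberg adjusted p under 0.05 in limma over all 12788 genes on log2(FPKM + 1), and all fold changes are on that log2 scale. Of the 56 members 9 fell and 9 rose, while 25.4% of all tested genes fell and 21.2% rose. The members' shares, 16.1% each way, were below both, so the splicing genes as a group were not called more often than other genes. The median over the members was −0.038. By class, 2 SR proteins fell and 3 rose, 2 hnRNPs fell and 4 rose, 3 SF3A or SF3B subunits fell and 2 rose, 1 snRNP protein fell and 1 U2AF gene fell. At this dose 48 of the 56 members had no overlap between the 2 treated and the 2 DMSO samples, and neither did 82.1% of all tested genes. With any 1 of these 4 samples left out, 4 or 5 members fell and 4 or 5 rose, and the share of all tested genes called went from 46.6% to as low as 31.8%. The calls of SRSF4, SRSF7, SRSF11, HNRNPAB, SF3B1, SF3B3 and SF3B5 were lost whichever of the 4 was left out. Those of HNRNPL and SNRPA were lost for 2 of the 4 and that of U2AF1L4 for 3, while the calls of SF3A3, SF3A2, SRSF5, SRSF8, HNRNPA2B1, HNRNPA3, HNRNPUL2 and HNRNPA1P10 were made each time.

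Among the SF3 subunits the direction divided by gene. SF3A3 (chr1:38422647-38455747, minus strand, GRCh37), a zinc finger subunit of SF3A, measured 137 and 140 FPKM with DMSO and 93.6 and 91.9 with 5 µM CBP30. It was at 119 and 120 with 2 µM CBP30, at 126 and 132 with 2 µM I-CBP112 and at 123 and 127 with 5 µM. All 8 treated samples of SF3A3 were below both DMSO samples. The log2 fold change was −0.57 (95% interval −0.68 to −0.46, adjusted p = 0.000113, limma) with 5 µM CBP30 and −0.21 (adjusted p = 0.0156, limma) with 2 µM, or −0.20 without replicate 1 of 2 µM CBP30. SF3A2 (chr19:2236823-2248654, plus strand), its partner in the same complex, fell by 0.46 with 5 µM CBP30 (adjusted p = 0.00268, limma), from 76.9 and 72.3 FPKM to 54.7 and 53.3. With 2 µM CBP30 it read 81.0 and 71.7, which overlapped the DMSO samples. The third SF3A subunit, SF3A1, which carries the ubiquitin-like domain, stayed within the DMSO range at 41.6 and 42.3 FPKM against 41.2 and 42.6, and the interval of its log2 difference was −0.10 to 0.11. SF3A1 is named here after its values were seen.

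SF3B5, a small subunit of SF3B, went from 179 and 184 FPKM with DMSO to 120 and 129 with 5 µM CBP30, a log2 fold change of −0.55 (95% interval −0.95 to −0.14, adjusted p = 0.0351, limma). At 2 µM CBP30 its samples were far apart, at 223 and 148 FPKM. SF3B1 (chr2:198253239-198299803, minus strand), the scaffold that cradles the branch point, moved the other way, from 145 and 148 FPKM to 177 and 173. Its log2 fold change was 0.26 (adjusted p = 0.0304, limma), and 2 µM CBP30 gave 136 and 157 FPKM on either side of the DMSO samples. SF3B3, which binds SF3B1, rose by 0.22 (adjusted p = 0.0275, limma), from 30.3 and 32.2 to 36.6 and 36.3 FPKM. SF3B5 has a transcript of 690 bases, and those of SF3B1 and SF3B3 have 6463 and 9692. With the trend with length removed from each sample, SF3A3, SF3A2, SF3B5 and SF3B1 were still called with 5 µM CBP30, SF3B1 at 0.16, and SF3B3 was not (0.088, adjusted p = 0.304, limma). The call of SF3B5 was lost with no filter (adjusted p = 0.0546, limma) and that of SF3B1 with quantile normalization (adjusted p = 0.0549, limma).

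**Figure D1:**
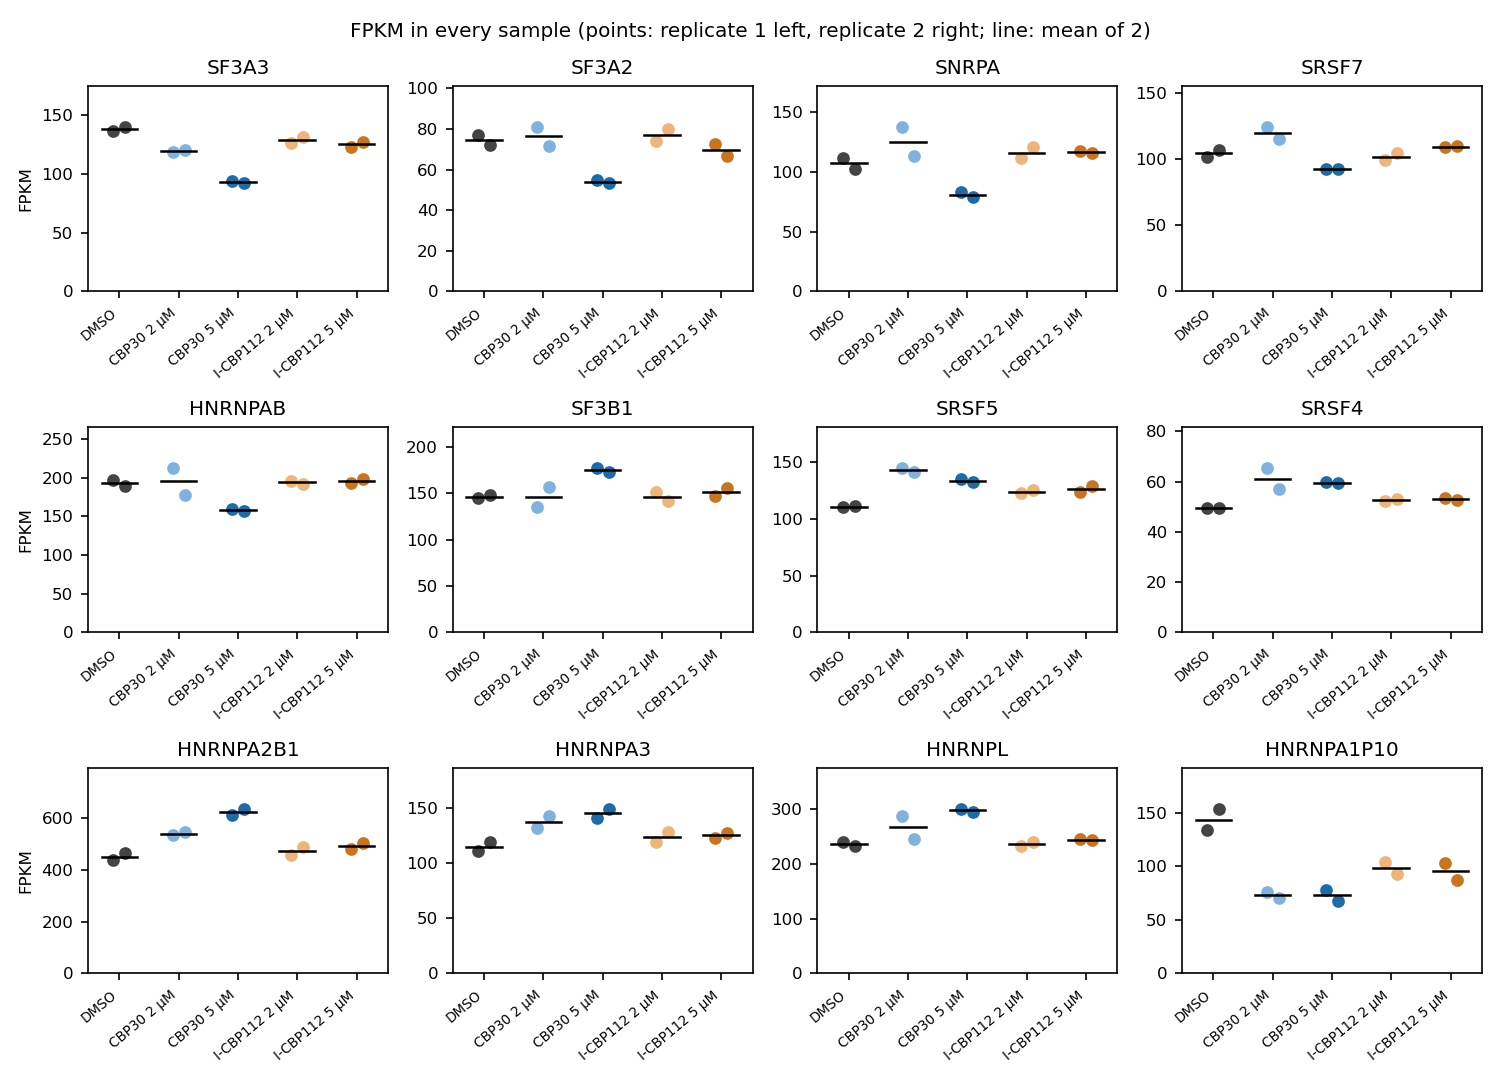
FPKM (y axis, from 0) in each of the 10 samples for 12 members, with the condition on the x axis, 1 point per sample and a line at the mean of 2. With 5 µM CBP30 both samples of SF3A3, SF3A2, SNRPA, SRSF7 and HNRNPAB lie below both DMSO samples, and both samples of SF3B1, SRSF5, SRSF4, HNRNPA2B1, HNRNPA3 and HNRNPL lie above them.

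SR proteins were divided as well. SRSF5 (chr14:70193617-70238722, plus strand), an SR protein induced by growth signals, measured 110 and 111 FPKM with DMSO and 135 and 132 with 5 µM CBP30, and rose by 0.27 (95% interval 0.16 to 0.38, adjusted p = 0.00266, limma). With 2 µM it read 145 and 141 FPKM, a log2 fold change of 0.36 (adjusted p = 0.00162, limma), and every CBP30 sample was above both DMSO samples. These values were 0.41 and 0.24 with the length trend removed. SRSF4, a larger SR protein with a long RS domain, went from 49.4 and 49.6 FPKM to 59.7 and 59.3 with 5 µM CBP30 (0.26, adjusted p = 0.0144, limma) and to 65.3 and 57.0 with 2 µM (0.30, adjusted p = 0.0142, limma). SRSF11, which is nuclear and SR-related in its domains, rose by 0.22 with 5 µM CBP30, from 69.9 and 68.6 to 80.3 and 80.9 FPKM (adjusted p = 0.0265, limma).

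The SR proteins that fell were SRSF8 and SRSF7. SRSF8, a relative of SRSF2, fell by 0.31 (adjusted p = 0.00185, limma), from 17.2 and 17.1 to 13.7 and 13.6 FPKM. SRSF7, whose zinc knuckle sets it apart from other SR proteins, fell by 0.17 (adjusted p = 0.0393, limma), from 102 and 107 to 92.5 and 92.9 FPKM. That call was the weakest of its class, and it was lost with the length trend removed. SRSF2 read 205 and 206 FPKM against 238 and 230 with DMSO, and SRSF3, which also promotes mRNA export, read 173 and 176 against 190 and 200. Neither passed the threshold (adjusted p = 0.0775 for SRSF2 and adjusted p = 0.0656 for SRSF3, limma), although both were below DMSO in each treated sample. Removal of the length trend brought a call for SRSF3 (−0.19, adjusted p = 0.0421, limma) and for SRSF9 (0.39, adjusted p = 0.00345, limma), which is named after its values were seen and had 0.24 (adjusted p = 0.247) before. The class median at 5 µM CBP30 was 0.070, and −0.019 in that fit. SRSF1, the founding member of the family and named after its values were seen, had 109 and 110 FPKM against 103 and 109, with an interval of −0.10 to 0.20 for the log2 difference.

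HNRNPA2B1 (chr7:26210771-26241149, minus strand), an hnRNP that also sorts RNA for transport, had the largest rise among the members at 5 µM CBP30. It measured 437 and 467 FPKM with DMSO, 536 and 547 with 2 µM CBP30 and 614 and 636 with 5 µM. The log2 fold changes were 0.26 (adjusted p = 0.0226, limma; 0.28 without replicate 1 of 2 µM CBP30) and 0.47 (95% interval 0.31 to 0.62, adjusted p = 0.00111, limma). The levels of the 3 conditions did not overlap, and the step from 2 to 5 µM was itself called (0.21, adjusted p = 0.0419, limma), though not without replicate 1 of 2 µM CBP30 (0.19, adjusted p = 0.0614). HNRNPA3, its close relative, rose by 0.33 with 5 µM CBP30, from 111 and 119 to 141 and 149 FPKM (adjusted p = 0.00603, limma), or by 0.25 with the length trend removed. HNRNPL, which binds CA repeats, rose by 0.33, from 239 and 233 to 299.9 and 295 FPKM (adjusted p = 0.0103, limma). HNRNPUL2, a relative of the scaffold protein HNRNPU, rose by 0.28 (adjusted p = 0.00211, limma). HNRNPA3 shares 17.5% and HNRNPL 18.3% of the 50-base windows of their transcripts with other loci, so part of their reads could be placed elsewhere. HNRNPA2B1 shares none.

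HNRNPAB, which binds AU-rich RNA, fell by 0.29 with 5 µM CBP30 (adjusted p = 0.0239, limma), from 197 and 189 to 159 and 157 FPKM, and by 0.16 with the length trend removed. With 2 µM it lay on both sides of DMSO at 212 and 178. The other hnRNP row that fell was HNRNPA1P10, described further below. Other abundant hnRNPs were not called and had intervals that hold 0. HNRNPK had 373 and 379 FPKM against 361 and 376 with DMSO, and the interval of its log2 difference was −0.11 to 0.17. HNRNPF had 198 and 199.6 against 199.8 and 200.3, with an interval of −0.11 to 0.09, and HNRNPU and HNRNPH1 had intervals of −0.23 to 0.07 and −0.14 to 0.09. With the length trend removed HNRNPU was called lower (−0.19, adjusted p = 0.0145, limma) and the other 3 were not called. These 4 are named after their values were seen.

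Of the snRNP proteins SNRPA (chr19:41256542-41271294, plus strand), the U1 protein that grips a stem-loop of U1 RNA, was called. It measured 112 and 102 FPKM with DMSO and 83.0 and 79.0 with 5 µM CBP30, a log2 fold change of −0.40 (95% interval −0.62 to −0.17, adjusted p = 0.013, limma), or −0.25 with the length trend removed. None of the 7 Sm ring proteins was called at 5 µM by limma, and none had an unadjusted p under 0.05. Their fold changes ranged from −0.14 to 0.15, with a median of −0.085. The fit estimated each gene's spread over all 5 groups, so the 2 µM CBP30 samples also entered the p-values and intervals at 5 µM. With only the 2 groups compared in the fit, 34 members and 60.97% of all tested genes were called, against 18 and 46.62%. The results for the Sm ring also depended on the length trend. With it removed limma called SNRPD2 (0.28, adjusted p = 0.0013) and SNRPG (0.19, adjusted p = 0.00768) higher, the Sm median was 0.050, and over all 11 snRNP proteins 2 were lower and 3 higher with a median of 0.017 in place of −0.0985. U2AF1 and U2AF2, the small and large subunits that read the end of the intron, were not called at either dose of CBP30. With 5 µM the log2 difference of U2AF1 was −0.07 (95% interval −0.41 to 0.27) and that of U2AF2 was 0.03 (95% interval −0.14 to 0.21). In the fit without the length trend U2AF2 was called higher at 5 µM (0.13, adjusted p = 0.0283, limma). U2AF1L4 fell by 0.38 (adjusted p = 0.0196, limma), from 7.53 and 9.05 to 5.84 and 6.39 FPKM, but was not called with the length trend removed (−0.23, adjusted p = 0.104, limma).

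**Figure D2:**
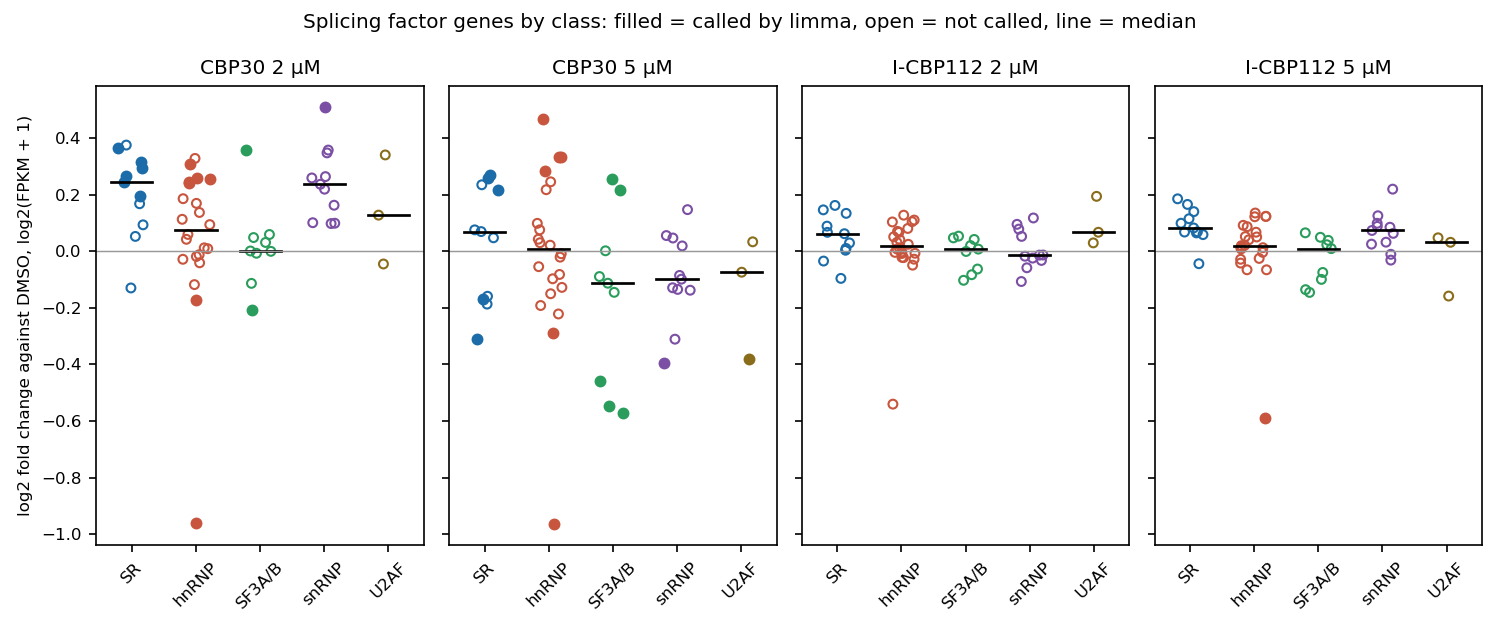
Log2 fold change against DMSO on the log2(FPKM + 1) scale (y axis) of every member, by class (x axis), in the 4 treatments. Filled points were called by limma, open points were not, and lines are class medians. The SR and snRNP medians lie near 0.25 and 0.24 with 2 µM CBP30 and at 0.070 and −0.0985 with 5 µM, and the points of I-CBP112 lie closer to 0, apart from HNRNPA1P10.

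With 2 µM CBP30 the direction was uneven. Of the 56 members 3 fell and 13 rose, against 16.3% and 15.9% of all tested genes. The members that rose were 23.2% of all members and those that fell 5.36%. The SR proteins took the largest share, with 6 of 11 higher and none lower (limma, 1 lower at an unadjusted p under 0.05), and 10 of 11 were above 0, with a class median of 0.25. SRSF6 rose by 0.32 (adjusted p = 0.00698, limma), from 48.1 and 50.1 to 59.1 and 63.7 FPKM, SRSF3 by 0.27 (adjusted p = 0.0156) and SRSF2 by 0.25 (adjusted p = 0.0427). SRSF6, which is named after its values were seen, had its higher value in replicate 2, the sample without the length trend, and a value of 0.37 without replicate 1. Replicate 2 of SRSF3 was at 226 FPKM and that of SRSF2 at 258, both above the DMSO samples. Without replicate 1 of 2 µM CBP30, limma still called SRSF2 (0.14, adjusted p = 0.0348, and 0.16 with both samples and the length trend removed), SRSF3 (0.22, adjusted p = 0.0219), SRSF4 (0.20, adjusted p = 0.00374), SRSF5 (0.35, adjusted p = 0.00126) and SRSF7 (0.14, adjusted p = 0.0467), with the lone sample assumed to vary like the other groups. Over all members, 14 of the 16 calls were made again without that replicate, and HNRNPA1 and SF3B14 were lost. With either DMSO sample left out most of the 16 calls were lost, those of SRSF2, SRSF4 and SRSF7 in both fits. The calls of SRSF5 and HNRNPA1P10 were made in both. Fewer of all tested genes were called in these fits too.

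For the snRNP proteins the 2 samples of 2 µM CBP30 disagreed in size. All 11 were above 0 with a median of 0.24, and 1 was called. With the length trend removed 9 of 11 were above 0 with a median of 0.11, SNRPC (−0.089) and SNRPA1 (−0.0060) were below 0, and 2 were called. SNRPD2 read 326 and 341 FPKM with DMSO and 560 and 404 with 2 µM CBP30, a log2 fold change of 0.51 (adjusted p = 0.0299, limma), 0.27 without replicate 1 (adjusted p = 0.0149) and 0.29 with the length trend removed. SNRPB, a core protein of the Sm ring and a gene named after its values were seen, read 231 and 230 with DMSO and 371 and 237 with 2 µM CBP30. The class median was 0.38 in replicate 1 and 0.080 in replicate 2. For SR proteins these medians were 0.26 and 0.14, and for hnRNPs 0.15 and 0.054. The median of all tested genes was 0.010 in replicate 1 and 0 in replicate 2. Over all members, removal of the length trend gave 3 lower and 20 higher in place of 3 and 13, with all 16 calls made again. Of the SR proteins 9 of 11 were then higher, with a median of 0.22. The share of all tested genes called went from 32.15% to 41.23% in that fit.

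**Figure D3:**
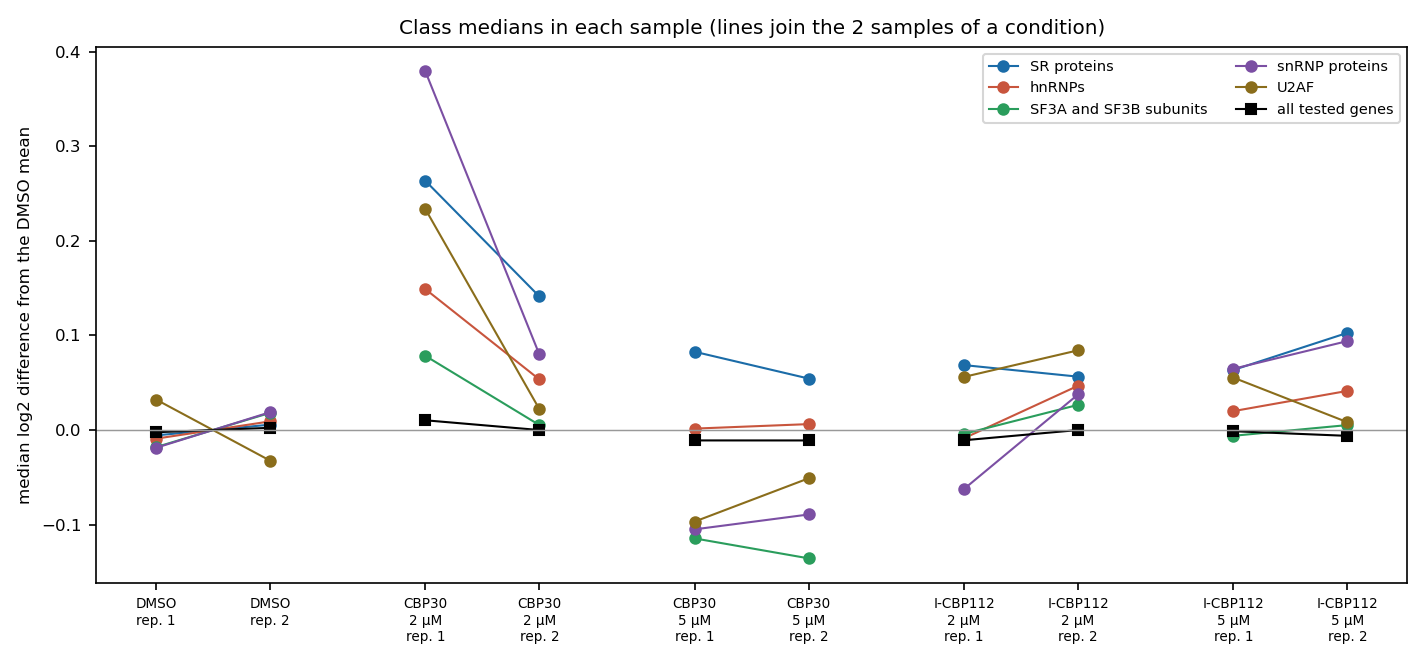
Median log2 difference from the DMSO mean (y axis) for each class and for all tested genes in each sample (x axis), with a line joining the 2 samples of a condition. The snRNP median of 2 µM CBP30 is 0.38 in replicate 1 and 0.080 in replicate 2, while both samples of 5 µM CBP30 lie below 0 for the snRNP, SF3A and SF3B and U2AF classes and above 0 for SR proteins.

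SF3A3 (−0.21, adjusted p = 0.0156, limma), HNRNPA1P10 and HNRNPUL1 were the members that fell with 2 µM CBP30. HNRNPUL1, an hnRNP linked to DNA repair and named after its values were seen, went from 112 and 110 FPKM to 94.5 and 103 (−0.17, adjusted p = 0.0433, limma), and the difference was −0.11 without replicate 1 of 2 µM CBP30 (adjusted p = 0.0372). HNRNPA0, which binds AU-rich RNA after phosphorylation, rose by 0.31 (adjusted p = 0.0256, limma), from 93.5 and 94.8 to 127 and 108 FPKM, and the samples of 5 µM had a mean of 100.9. Its rise with 2 µM was 0.19 without replicate 1 (adjusted p = 0.0257, limma) and 0.50 with the length trend removed (adjusted p = 0.0368, limma). HNRNPA1 itself went from 1006 and 1019 FPKM to 1261 and 1139 (0.24, adjusted p = 0.0494, limma), a call just inside the threshold that was lost without replicate 1 (0.17, adjusted p = 0.0613, limma). With 5 µM it read 917 and 936 FPKM, below both DMSO samples, with a log2 difference of −0.13 that was not called (adjusted p = 0.215, limma).

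The comparisons of each dose with DMSO share the DMSO samples, and the direct comparison of 5 with 2 µM CBP30 does not use them. In it 21 of 56 members were lower at 5 µM and 3 were higher, where 21.3% of all tested genes were lower and 17.6% higher. Members made 37.5% and 5.36%, and the median over the members was −0.16. The lower ones were 5 SR proteins, 4 hnRNPs, 5 SF3A or SF3B subunits, 6 snRNP proteins and U2AF1L4. All 11 snRNP proteins, 7 of them Sm ring proteins, had a difference below 0, with a median of −0.33. With the length trend removed that median was −0.067, and SNRPA1 (0.22), SNRPG (0.14) and SNRPF (0.017) were above 0, the first 2 of them called higher. The higher ones were HNRNPA2B1, SF3B1 and SF3B3.

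In 16 of the 21 lower members (76.2%) the 2 µM fold change was above 0 and the 5 µM one below it. A gene that is lower at 5 than at 2 µM is more apt to have that order, and among the 2724 tested genes called lower it was found in 44.9%. Over all members it was 21 of 56 (37.5%) and over all tested genes 16.5%. These shares were not tested. SRSF7 was the 1 member of 56 called higher at 2 µM and lower at 5 µM, as were 23 of 12788 tested genes. Its call at 5 µM was lost with any sample of that comparison left out, with the replicate block and with the length trend removed. SRSF7 measured 124 and 115 FPKM at 2 µM, 102 and 107 with DMSO and 92.5 and 92.9 at 5 µM. SRSF2 and SRSF3 had the same order, and the step between doses was −0.43 for both (adjusted p = 0.00757 and adjusted p = 0.00415, limma). The largest step was that of SNRPA at −0.62 (95% interval −0.84 to −0.39, adjusted p = 0.00568, limma), from 137 and 113 to 83.0 and 79.0 FPKM. SF3B5 followed with −0.55 (adjusted p = 0.0424) and SF3B14, the branch-point protein now named SF3B6, with −0.50 (adjusted p = 0.0135), from 232 and 184 to 148 and 143 FPKM.

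These steps rest in part on replicate 1 of 2 µM CBP30. Without it 16 members were lower and 2 higher, and 15 of the 24 calls were made again, among them SNRPA (−0.48), SF3B14 (−0.34), SF3A2 (−0.40), SF3A3 (−0.37), SRSF3 (−0.38), SRSF2 (−0.32), SRSF7 (−0.31) and HNRNPA1 (−0.30). The calls of SF3B1, SF3B3, SF3B5, HNRNPA2B1 and U2AF1L4 were among those lost. Without replicate 2 of 2 µM CBP30 instead, more members were called, and the SNRPA step was −0.76. With either sample of 5 µM CBP30 left out, far fewer members were called. In each of these refits the calls over all tested genes moved in the same direction as those of the members. With the length trend removed, 18 were lower and 5 higher, and 15 calls were made again. There the SF3B3 step changed sign to −0.12 and that of U2AF1L4 to 0.010, neither of them called. The SNRPA step was then −0.32, that of SF3B14 −0.15 and that of SRSF2 −0.22, all called, and those of SF3B5 (−0.20, adjusted p = 0.086, limma) and SF3B1 (0.033, adjusted p = 0.559, limma) were not.

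**Figure D4:**
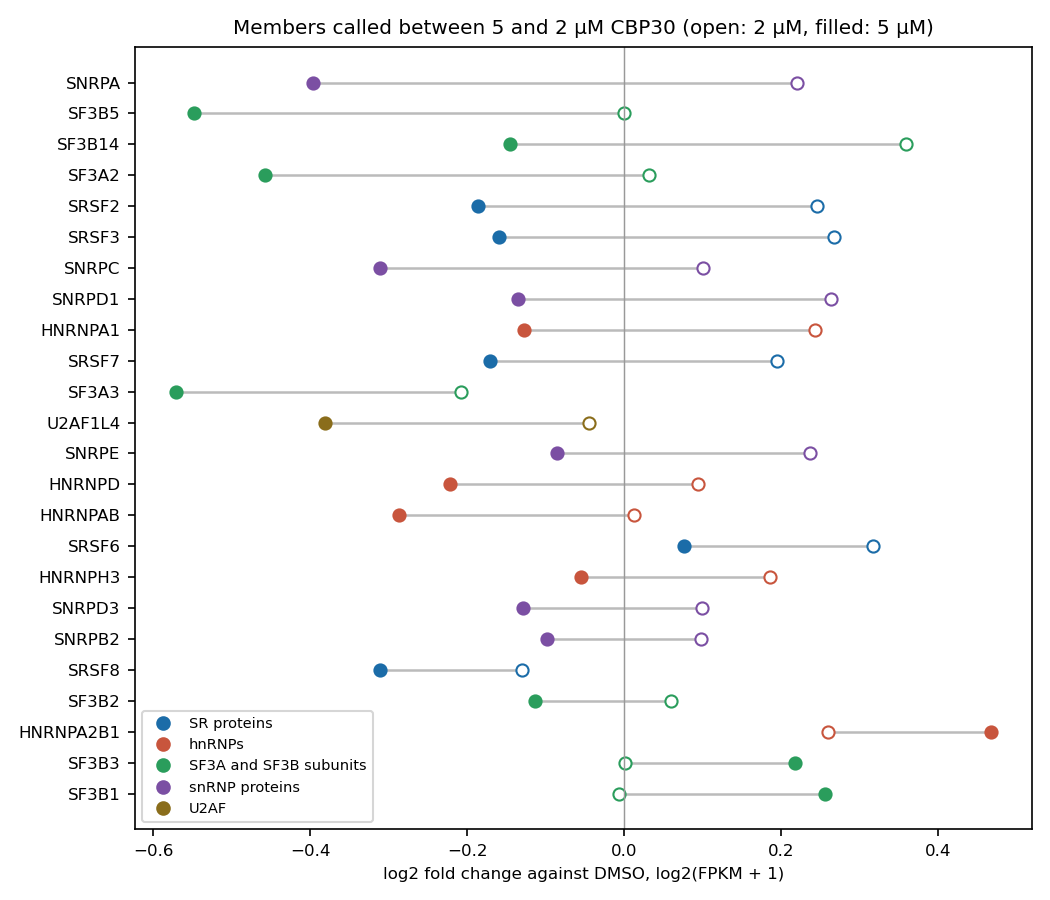
Log2 fold change against DMSO (x axis) with 2 µM CBP30 (open) and 5 µM CBP30 (filled) for the 24 members called in the direct comparison of both doses, in order of that difference and coloured by class. In 16 of the 21 lower members the open point is above 0 and the filled point below it, and HNRNPA2B1, SF3B3 and SF3B1 go the other way.

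I-CBP112, the other inhibitor, left nearly all members uncalled. With 5 µM, 1 member fell and none rose by limma, against 3.28% and 3.84% of all tested genes, and 5 members had an unadjusted p under 0.05. With 2 µM no member fell or rose, against 0.735% and 0.868% of all tested genes, and 2 had an unadjusted p under 0.05. The member that fell was HNRNPA1P10, and it was not called with any 1 of the 4 samples left out. SRSF5 came closest to the threshold after it, with 123 and 129 FPKM at 5 µM against 110 and 111 with DMSO, a log2 fold change of 0.19 (95% interval 0.08 to 0.29, adjusted p = 0.0565, limma). With 2 µM it read 123 and 125 FPKM. All 8 treated samples of SRSF5 were above both DMSO samples, and its log2 fold changes for 2 and then 5 µM were 0.36 and 0.27 for CBP30 and 0.16 and 0.19 for I-CBP112. For SF3A3 the corresponding values were −0.21 and −0.57 with CBP30 and −0.10 and −0.15 with I-CBP112.

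At matched doses the compounds were compared directly, in 2 comparisons with p adjusted over all genes within each. At 5 µM, 10 members were lower with CBP30 than with I-CBP112 and 4 were higher, while 17.9% and 13.6% of all tested genes were. SNRPA differed most, at 83.0 and 79.0 FPKM with CBP30 and 117 and 116 with I-CBP112 (−0.52, 95% interval −0.75 to −0.29, adjusted p = 0.00719, limma). SF3A3 (−0.43, adjusted p = 0.000977) and HNRNPA2B1 (0.35, adjusted p = 0.00774) also differed, as did SRSF2, SRSF3, SRSF7 and SRSF8, each lower with CBP30. SRSF5 did not pass the threshold between the compounds, and the interval of its difference was −0.02 to 0.19. For U2AF2 the interval was −0.17 to 0.18. With any 1 of the 4 samples left out, far fewer members were called, and so were fewer of all tested genes. Removal of the length trend ended the calls of HNRNPA1P10, HNRNPUL2 and SF3B3 between the compounds at 5 µM. At 2 µM no member was lower with CBP30 and 4 were higher, against 8.45% and 7.13% of all tested genes, and limma gave 2 lower ones an unadjusted p under 0.05. These were HNRNPA0 (0.32), SRSF3 (0.26), SRSF7 (0.23) and SRSF5 (0.20), with adjusted p between 0.0299 and 0.0409 in limma, and limma called all 4 again without replicate 1 of 2 µM CBP30 and none without either sample of 2 µM I-CBP112. Without that replicate HNRNPA0 differed by 0.20, and with the length trend removed SRSF5 was not called (0.061, adjusted p = 0.519, limma). SRSF3 and SRSF7 were higher with CBP30 than with I-CBP112 at 2 µM and lower at 5 µM.

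HNRNPA1P10 had the largest fold changes of all members, and it is a processed copy of HNRNPA1 on chromosome 19 (chr19:11776884-11777845, minus strand, GRCh37). It measured 134 and 153 FPKM with DMSO, 75.7 and 70.5 with 2 µM CBP30, 78.2 and 67.9 with 5 µM, 104 and 92.3 with 2 µM I-CBP112 and 103 and 87.6 with 5 µM. All treated samples were below both DMSO samples. The log2 fold changes were −0.96 at both doses of CBP30 (adjusted p = 0.00145 at 2 µM and adjusted p = 0.000589 at 5 µM, limma), −1.01 at 2 µM without replicate 1 of that dose, and for I-CBP112 they were −0.59 at 5 µM (adjusted p = 0.029) and −0.54 at 2 µM (adjusted p = 0.0839). With the length trend removed the value at 5 µM CBP30 was −0.81.

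The identity of that signal is uncertain. The copy has 962 bases, of which 959 align to the coding sequence of HNRNPA1 and 955 (99.6%) are identical, with 4 differing bases and an identical run of 301. Of its 50-base windows, the length of the reads, 88.5% also occur in transcripts of other loci. The stretch around 1 of the differences is shown from both genes, with the differing base in capitals, to make plain how little separates them. The lines hold coding bases 124 to 183 of HNRNPA1 and chr19:11777663-11777722 (minus strand, GRCh37) of the copy.
HNRNPA1: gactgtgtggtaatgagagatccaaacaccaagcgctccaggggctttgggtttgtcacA
HNRNPA1P10: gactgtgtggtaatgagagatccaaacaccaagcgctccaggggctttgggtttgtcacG
How reads that fit both were shared out is not given in the sources used here. HNRNPA1 was not called lower in any treatment, and at 2 µM CBP30 it was higher while the copy was lower. HNRNPA1L2, a copy on chromosome 13 that shares 54.5% of its windows, had no call. Without the copies, the antisense RNA HNRNPU-AS1 and the readthrough HNRNPUL2-BSCL2, a setting chosen after the data were seen, 8 of 52 members fell and 9 rose with 5 µM CBP30, and none was called with 5 µM I-CBP112, where limma gave 4 an unadjusted p under 0.05.

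Promoters were read from RefSeq's table for GRCh38.p14, which spans 250 bases before to 50 after each gene's start and matched 50 of the 56 members. HNRNPA1, HNRNPA1P10, HNRNPU-AS1, SF3B3, SNRPD1 and SRSF2 had no entry under their symbol. Both strands were searched for 4 motifs: CACGTG, the E-box read by MYC and its relatives, AGATAA for GATA factors, CCGGAAG for ETS factors, and CCAAT for NF-Y. None of the motifs contains another. The ETS word was in 18 of 50 members (36.0%), against 20.5% of 9526 tested genes with a promoter and 10.7% of all 27305 promoters. It stood in 7 of 10 snRNP genes, in 6 of 8 SF3A or SF3B genes, in 1 of 3 U2AF genes, and in 2 of 10 SR and 2 of 19 hnRNP genes. CCAAT was in 13 of 19 hnRNP, 4 of 10 snRNP, 2 of 10 SR, 1 of 8 SF3A or SF3B and 0 of 3 U2AF genes, against 37.3% of tested genes. The hnRNP count holds both HNRNPUL2 and its readthrough HNRNPUL2-BSCL2. The E-box was in 7 of 50 members, 6 of them hnRNP genes, against 10.4% of tested genes, and the GATA word was in none of the members, against 4.95% of tested genes. The GATA count depended on the letters: a wider set of 4 GATA words, with A or T before GATA and A or G after it, was searched first and was in 4 of 50 members, against 14.7% of tested genes, and the single word was chosen after that count was seen. These shares describe the letters in these windows and were not tested.

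Of the 8 members that fell with 5 µM CBP30 and have a promoter, 2 held the ETS word and none the E-box, and of the 8 that rose, 2 held each. Among the 34 members not called, 14 (41.18%) held the ETS word and 5 the E-box. A link between motif and response was not tested. Stretches of 60 bases before the start are shown for a fallen and a risen member with the ETS word and for the risen members with an E-box, on the gene's strand and with the motif in capitals. They lie at chr1:37990058-37990117 (minus strand) for SF3A3, chr14:69767058-69767117 (plus) for SRSF5, chr2:177212696-177212755 (plus) for HNRNPA3 and chr2:197435104-197435163 (minus) for SF3B1.
SF3A3: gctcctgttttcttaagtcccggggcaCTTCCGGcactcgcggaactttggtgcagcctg
SRSF5: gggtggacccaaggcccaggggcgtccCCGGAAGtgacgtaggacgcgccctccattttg
HNRNPA3: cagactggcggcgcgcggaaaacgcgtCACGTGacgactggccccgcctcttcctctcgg
SF3B1: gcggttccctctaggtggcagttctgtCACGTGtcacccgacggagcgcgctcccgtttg
SF3A3 carries the ETS word as its reverse complement, 68 bases before the start, and SRSF5 carries it forward at 57 bases. The E-box of HNRNPA3 starts 71 bases before the start and that of SF3B1 108 bases.

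Genes that act with these members were counted from further lists, whose called genes are named after their values were seen. Shares below are read against the 25.4% of all tested genes that fell and 21.2% that rose with 5 µM CBP30, and 16.3% and 15.9% with 2 µM, and none was tested. Of the snRNP assembly factors, which load the Sm ring onto U RNA, 6 of 11 tested (54.5%) fell with 5 µM CBP30 and none rose, with a list median of −0.31 against −0.0096 over all tested genes, and 3 fell with 2 µM. PRMT5, the methyltransferase that modifies Sm tails, fell by 0.68, GEMIN4 by 0.44 and GEMIN5, which recognises U RNAs, by 0.43. Of the SR protein kinases and SR-related proteins, 6 of 13 (46.2%) rose and 1 fell at each dose. The kinase CLK4, which phosphorylates RS domains, rose by 0.50 with 5 µM CBP30, CLK1 by 0.36, SRPK2 by 0.56 and TRA2A by 0.58, while SRPK1 fell by 0.36. Sm-like proteins had 2 of 9 lower (LSM7 and LSM2), and all 9 were below 0. The proteins of the tri-snRNP and the U1 and U2 particles outside the symbol rule had 5 of 20 lower and 2 higher, and the Prp19 complex and catalytic step proteins had 5 of 19 lower and 4 higher. The lower shares of these 3 lists, 22.2%, 25.0% and 26.3%, lie at that of all tested genes. Of 37 other splicing regulators 5 fell and 8 rose (21.6%) with 5 µM CBP30, and 3 fell and 12 rose (32.4%) with 2 µM. The largest changes in that list were those of the muscleblind proteins MBNL3, which rose by 1.22 with 5 µM, and MBNL2, which fell by 0.97 with 2 µM and 0.75 with 5 µM, and of RBFOX2, which binds GCAUG and rose by 0.84 with 5 µM.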

How the data were processed

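Gene expression was measured in 10 samples of K562 cells, 2 for each of 5 conditions. Per the labels and the study's methods, the authors prepared strand-specific poly(A) libraries, read 50 bases from one end, processed them with Nextpresso on hg19 and deposited 1 FPKM value per gene and sample. The submitters' processing notes name FastQC, TopHat2 2.0.10, Bowtie 1.0.0, SAMtools 0.1.19, Cufflinks 2.2.1 and Cuffnorm, with no role or order, and the gene annotation is not given in the sources used here. FPKM sums ranged from 547504 to 689095 per sample, and replicates of a condition correlated with r between 0.962 and 0.976 over genes.

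Values were tested as log2(FPKM + 1) in limma 3.58.1 (R 4.3.3; lmFit, eBayes with a trend), which was run on all 12788 genes averaging 0.5 FPKM or more and all 5 groups in 1 fit with 5 residual degrees of freedom. The threshold for a call was a Benjamini-Hochberg adjusted p of 0.05, and limma gave all adjusted p-values and the 95% intervals. The code was tested on simulated data. The labels number 2 biological replicates per condition, and p-values measure the spread between these cultures only. Positions, transcript lengths (12117 tested genes) and shared 50-base windows came from GENCODE for GRCh37, whose transcripts can differ from the models behind the table. Python 3.11.15, pandas 2.3.3 and matplotlib 3.10.9 made the tables and figures.

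The members, the lists and the tests were chosen with earlier results of these data known. Genes named with values are, per class, the called members with the 3 lowest and 3 highest fold changes at 5 µM CBP30 and the member with the highest DMSO level, U2AF1 and U2AF2, members called with I-CBP112, the 3 largest called differences between compounds and between CBP30 doses, and the genes next to the 0.5 FPKM limit. The settings varied were the pseudocount (0.1), the filter (none or 5 FPKM), the scaling (median centring or quantile normalization), the trend in eBayes, a fit of only the groups compared, a replicate block, the length trend removed from each sample (alone and with the block) and each sample left out, and 1 added after the data were seen left out 4 copy, antisense and readthrough rows. Experiments other than this table were not analysed here.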

Additional observations from a re-analysis of the deposited data

How the results depend on the processing

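The 63 called changes of named members were recomputed under 10 alternatives that kept all samples. Of 630 such values, 526 were called again in the same direction, 99 kept the direction without a call and 5 changed sign. The 5 were the SF3B3 step from 2 to 5 µM CBP30 (−0.12 with the length trend removed, alone or with the block), that of U2AF1L4 (0.010 in both fits) and HNRNPA1 between the compounds at 5 µM (0.024 with quantile normalization). With 1 sample left out, 117 of 252 values were called, 135 were not and none changed sign. The cause of these shifts was not tested. Counts that moved by over 1.5 times with all samples kept follow as lower and higher members. With 5 µM CBP30, quantile normalization gave 16 higher, removal of that trend together with the replicate block 14 higher, and only the groups compared 20 and 14, against 9 and 9. Of all genes tested, these fits called 49.49%, 54.82% and 60.97% in that order, against 46.62%. With 2 µM CBP30, the length trend removed gave 20 higher, and only the groups compared 1 and 0, against 3 and 13. The shares of all genes called were 41.23% and 2.40%, against 32.15%. With 5 µM I-CBP112, no filter and quantile normalization gave 1 higher, the length trend removed (alone or with the block) 2 higher, only the groups compared 0 and 2, and the set without 4 copy, antisense and readthrough rows 0 lower, against 1 and 0. The first 4 of these fits called 4.57%, 8.13%, 15.34% (13.58% with the block) and 12.99% of all genes, against 7.12%. For 5 against 2 µM CBP30, quantile normalization gave 11 and 8, the length trend removed 5 higher (6 with the block), and only the groups compared 0 and 0, against 21 and 3. All-gene shares were 39.75%, 37.19% (36.31% with the block) and 0.047%, against 38.93%. For CBP30 against I-CBP112 at 5 µM, median centring and eBayes without the trend gave 2 higher, quantile normalization 12 higher, the length trend removed with the block 7 higher, and only the groups compared 21 and 10, against 10 and 4. In that order 30.94%, 31.35%, 35.09%, 39.45% and 51.27% of all genes were called, against 31.44%. At 2 µM, the filter at 5 FPKM and quantile normalization gave 1 lower, the length trend removed 4 and 11 (4 and 9 with the block), and only the groups compared 0 higher, against 0 and 4. Here 17.02%, 19.34%, 24.87% (22.75% with the block) and 0.11% of all genes were called, against 15.58%. The calls over all tested genes moved as well when 1 sample was left out. With 1 sample left out, the ranges of lower and higher members were 4 to 5 and 4 to 5 (5 µM CBP30), 1 to 5 and 1 to 31 (2 µM CBP30), 0 and 0 (5 µM I-CBP112), 5 to 34 and 0 to 4 (5 against 2 µM CBP30), 1 to 4 and 0 to 1 (compounds at 5 µM) and 0 to 3 and 0 to 29 (compounds at 2 µM).

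The replicate numbers are shared between conditions, but same-numbered samples did not deviate together, with correlations between −0.068 and 0.094 over 10 pairs of groups. With the replicate number as a block, 7 members fell and 9 rose with 5 µM CBP30 (the calls of SF3B5, at an adjusted p of 0.0521 in limma, and SRSF7 were lost), 2 and 10 with 2 µM CBP30, and 15 were lower and 3 higher at 5 than at 2 µM. In that order the block called 44.93%, 29.72% and 35.51% of all tested genes, against 46.62%, 32.15% and 38.93%. The 4 members higher with CBP30 than with I-CBP112 at 2 µM became 0 under the block. There 11.1% of all tested genes were called, against 15.58%. Read depth is unknown, and changes near the spread between replicates could not be resolved.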
